A study of Mus musculus with 17 samples.

Results

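The TGF-beta ligands and latent TGF-beta binding proteins measured here are 10 genes, taken by symbol from the array's annotation and read at the probe set with the highest mean: the ligand genes Tgfb1, Tgfb2, Tgfb3, Gdf11, Inhba and Bmp4, and the binding protein genes Ltbp1, Ltbp2, Ltbp3 and Ltbp4. All 10 were measured among 19938 genes, and each had 1 probe set. The cells are the 3134 line of mouse mammary epithelium, and the 17 arrays come from 4 of its stable derivatives, all with the tetracycline-regulated transactivator. The dnBrg1, dnChd4 and dnSnf2h lines each had 2 induced arrays (48 h without tetracycline, so that the transactivator and a Flag-tagged dominant-negative remodeler were made) and 2 repressed arrays (48 h with the drug). The control line (3134Tet) had 3 induced arrays, with the transactivator alone, and 2 repressed arrays. Brg1 drives SWI/SNF remodeling complexes, Chd4 drives NuRD and Snf2h drives ISWI complexes. Every induced array differs from its repressed partner in the transactivator and the drug as well as in the remodeler, and the labels do not say whether a line is 1 clone or whether its replicates were cultured apart. The p-values therefore measure nothing but the scatter among these arrays, which may be technical.

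TGF-beta is secreted in a latent form. The mature dimer stays wrapped in its own propeptide, and a latent TGF-beta binding protein (LTBP) is bonded to that propeptide in the cell and anchors the complex to fibrillin and fibronectin fibres outside it, from which integrins and proteases release the active ligand. Activin A, a dimer of the Inhba product, and Gdf11 act through activin-type receptors and the same Smad2 and Smad3 branch, whereas Bmp4 acts through Smad1, Smad5 and Smad9. In the mammary gland TGF-beta restrains ductal growth and shapes the surrounding matrix.

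Values are log2 signals as deposited. Fold changes are differences of group means, and adjusted p is limma's, over all 19938 genes, with 0.05 as the threshold. As a check of the labelled cell type, 6 of 8 epithelial marker genes read above 4.77, the level that bounds the dimmest 30% of genes. Of these Krt14 (median 7.49) and Krt8 (6.35) were the highest and Krt5 (4.85) and Cdh1 (5.17) the lowest. Epcam (4.10) and Krt19 (4.58) read below 4.77. All 6 fibroblast genes read above it, with Vim (12.71), S100a4 (9.69) and Cdh2 (9.55) the highest. Of 6 macrophage genes 5 were below it. The mean of the fibroblast list lay between 8.56 and 9.41 on the 17 arrays, and that of the epithelial list between 5.28 and 5.66. These markers do not settle whether the cells are epithelial in type. The Chd4 probe set read 12.27 on average in induced dnChd4 arrays against 10.45 in repressed ones, which checks that line's labels. Smarca4 in dnBrg1 (0.12) and Smarca5 in dnSnf2h (-0.24) did not pass, and the labels do not say whether these probe sets read the introduced sequence. The 5 control arrays did not group by label: the nearest array to the library labelled control repressed replicate 1 was control induced replicate 2 (r = 0.995 over genes), and the other repressed library and control induced replicate 1 were each other's nearest (r = 0.994). Of the 12 dominant-negative arrays 9 were closest to an array of their own group and 3, all dnSnf2h, to a dnChd4 array in the same state. Inductions of the dominant-negative lines were therefore fitted on those 12 arrays, and contrasts with the control line on all 17, with 15 arrays (without control repressed replicate 1 and control induced replicate 1) beside them.

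Of the 10 genes, 4 passed in all 3 dominant-negative lines, and the share of all genes that did so is not given here. Gdf11 and Inhba rose, and Ltbp1 and Ltbp4 fell. Tgfb1 and Ltbp2 passed in 1 line each, and Tgfb2, Tgfb3, Bmp4 and Ltbp3 in none. In dnBrg1, 2 members rose and 2 fell, where 14.2% of all genes passed (8.01% higher and 6.22% lower). In dnChd4, 3 rose and 2 fell, where 18.0% of all genes passed (11.2% higher and 6.82% lower). In dnSnf2h, 3 rose and 2 fell, where 17.5% of all genes passed (9.20% higher and 8.34% lower). The median change over the members was -0.02 in dnBrg1, 0.15 in dnChd4 and 0.18 in dnSnf2h, against -0.0347, -0.0273 and -0.00868 over all genes in the same lines. With 15 arrays all 14 of these calls held. With 17 arrays, where the spread of the control arrays enters every gene's error, 13 of the 14 were lost with the same fold changes, and only the fall of Ltbp4 in dnBrg1 passed.

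**Figure D1:**
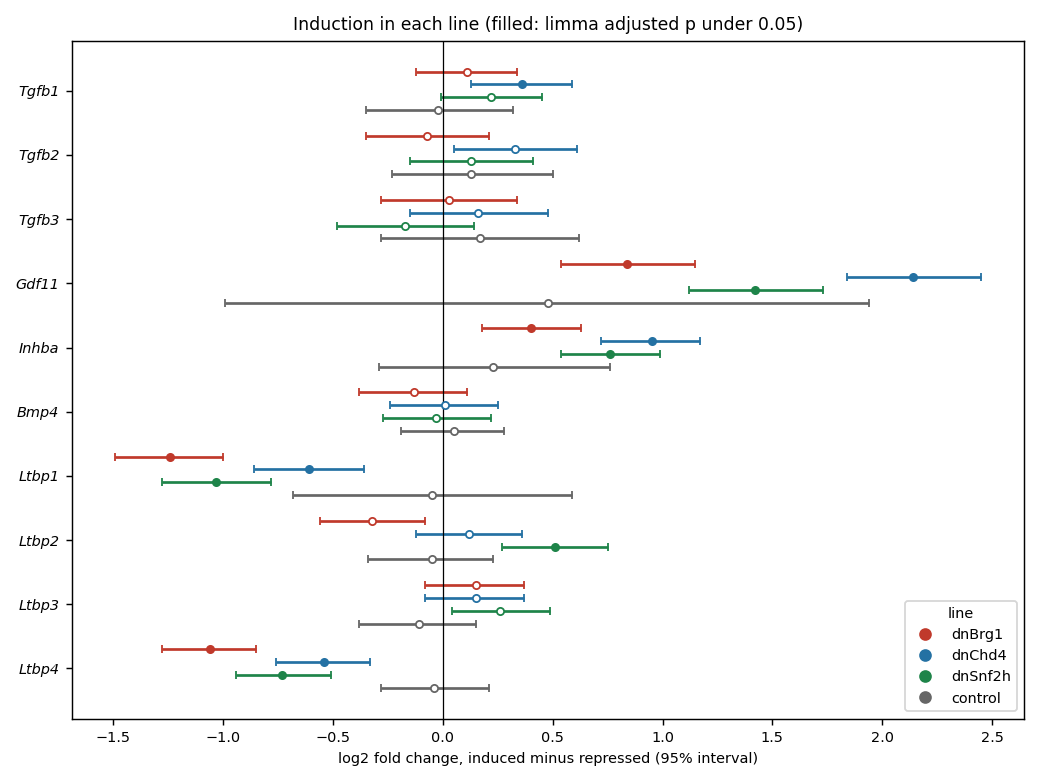
Log2 fold change of each member gene (rows), induced minus repressed, in the dnBrg1, dnChd4, dnSnf2h and control lines, with 95% intervals from limma; filled points passed an adjusted p of 0.05. Gdf11 and Inhba lie right of 0 and Ltbp1 and Ltbp4 left of 0 in the 3 dominant-negative lines, and the control intervals for Gdf11 and Ltbp1 are the widest of the plot.

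The promoters of these 4 genes are shown because these genes passed in all 3 dominant-negative lines. The windows are RefSeq's on GRCm38.p6, 250 bases before to 50 after an annotated start. The probe set does not tell the starts of a gene apart. Of the 10 genes 9 had a window, and 4 of them are printed, Ltbp1 with both of its starts and Ltbp4 with 2 of 3 (the remaining one overlaps the second). Capitals mark matches, on either strand, to CAGAC (the core that Smad3 and Smad4 contact), GGCGCC (a GC-rich Smad motif), TGANTCA (AP-1), CACGTG (an E-box) and TATAAA (the TATA box).
Gdf11, chr10:128891669-128891968, minus strand: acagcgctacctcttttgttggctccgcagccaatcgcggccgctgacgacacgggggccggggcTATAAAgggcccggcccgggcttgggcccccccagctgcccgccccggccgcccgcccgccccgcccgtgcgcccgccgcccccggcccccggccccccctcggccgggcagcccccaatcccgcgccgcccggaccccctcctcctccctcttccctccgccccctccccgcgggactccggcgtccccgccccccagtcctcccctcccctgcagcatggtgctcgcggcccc
Inhba, chr13:16011601-16011900, plus strand: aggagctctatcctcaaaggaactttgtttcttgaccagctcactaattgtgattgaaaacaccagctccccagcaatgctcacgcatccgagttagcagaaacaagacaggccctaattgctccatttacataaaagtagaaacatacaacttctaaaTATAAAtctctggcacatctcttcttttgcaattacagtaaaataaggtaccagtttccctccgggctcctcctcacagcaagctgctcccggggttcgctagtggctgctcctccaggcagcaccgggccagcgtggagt
Ltbp1, chr17:75005279-75005578, plus strand: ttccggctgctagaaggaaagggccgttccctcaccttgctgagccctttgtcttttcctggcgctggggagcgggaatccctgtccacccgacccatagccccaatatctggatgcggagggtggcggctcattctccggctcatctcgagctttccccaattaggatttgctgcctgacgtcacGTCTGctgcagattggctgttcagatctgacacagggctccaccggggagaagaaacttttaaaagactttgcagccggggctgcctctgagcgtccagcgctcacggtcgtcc
Ltbp1, chr17:75178531-75178830, plus strand: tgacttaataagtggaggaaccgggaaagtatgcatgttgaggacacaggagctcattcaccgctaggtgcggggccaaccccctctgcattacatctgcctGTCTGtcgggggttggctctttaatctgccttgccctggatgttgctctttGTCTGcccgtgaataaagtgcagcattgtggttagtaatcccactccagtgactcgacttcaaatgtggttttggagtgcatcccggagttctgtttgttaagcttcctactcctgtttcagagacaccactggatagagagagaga
Ltbp4, chr7:27337563-27337862, minus strand: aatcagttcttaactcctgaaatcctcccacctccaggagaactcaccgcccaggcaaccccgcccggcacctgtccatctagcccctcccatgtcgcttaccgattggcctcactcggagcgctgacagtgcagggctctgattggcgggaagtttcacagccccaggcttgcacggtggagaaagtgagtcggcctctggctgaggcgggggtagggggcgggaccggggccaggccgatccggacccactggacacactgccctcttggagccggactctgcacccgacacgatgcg
Ltbp4, chr7:27333599-27333898, minus strand: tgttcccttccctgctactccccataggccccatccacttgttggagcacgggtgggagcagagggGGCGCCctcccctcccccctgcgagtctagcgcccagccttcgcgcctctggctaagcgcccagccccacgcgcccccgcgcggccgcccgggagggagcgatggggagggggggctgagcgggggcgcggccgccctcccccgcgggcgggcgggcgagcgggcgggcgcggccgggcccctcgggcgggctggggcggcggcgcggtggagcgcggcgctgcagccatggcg

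The 2 genes that rose each held 1 TATAAA match, in Gdf11 starting 185 bases and in Inhba 91 bases before the annotated start, and none of the other motifs. Among all 32851 windows of this length 13.6% held TATAAA. The Ltbp1 windows held 1 and 2 CAGAC matches, a motif found in 49.6% of windows. Ltbp4 held 1 GGCGCC match, in the second window, and 11.9% of all windows held one. No window printed here held TGANTCA (7.81% of all windows) or CACGTG (7.15%). Base composition did not pair the genes by direction: Gdf11 was 80.7% GC and Inhba 47.7%, and the Ltbp windows ran from 50% to 80.3%, against a median of 52.7% over all windows. Matches were counted anywhere in a window, whatever their distance from the start. A TATAAA match is therefore not shown to be a working TATA box. These matches describe letters in the windows and show no binding.

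Gdf11 encodes a ligand close to myostatin that signals through Smad2 and Smad3. Its probe set read 9.14 and 9.05 in induced dnBrg1 arrays, against 8.37 and 8.13 in repressed ones. In the dnChd4 line it read 9.42 and 9.22 induced and 7.38 and 6.98 repressed. In the dnSnf2h line it read 8.86 and 8.86 induced and 7.27 and 7.60 repressed. Within each of these lines every induced array was above every repressed array, as was also so for Inhba and Ltbp3. The share of all genes separated in this way is not given here. Gdf11 rose by 0.84 in dnBrg1 (SE 0.142, 1.80-fold; limma adjusted p = 0.000983), by 2.14 in dnChd4 (SE 0.142, 4.42-fold; adjusted p = 2.65e-07) and by 1.42 in dnSnf2h (SE 0.142, 2.68-fold; adjusted p = 1.23e-05). The induced arrays of the 3 lines lay between 8.86 and 9.42 and the repressed ones between 6.98 and 8.37, with dnBrg1 the highest of these. In the order of group means Gdf11 ran from induced dnChd4 (9.32) through induced control (9.10), induced dnBrg1 (9.09), induced dnSnf2h (8.86), repressed control (8.63), repressed dnBrg1 (8.25) and repressed dnSnf2h (7.43) to repressed dnChd4 (7.18), and the only neighbours without overlapping arrays were induced dnBrg1 over induced dnSnf2h and repressed dnBrg1 over repressed dnSnf2h.

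Inhba encodes the subunit of activin A. It read 7.76 and 7.83 in induced dnBrg1 arrays, against 7.42 and 7.36 in repressed ones. In dnChd4 it read 7.73 and 7.98 induced and 6.85 and 6.97 repressed, and in dnSnf2h 7.58 and 7.74 induced and 6.86 and 6.94 repressed. As with Gdf11, the arrays of the 2 states did not overlap within a line, the induced levels of the 3 lines lay between 7.58 and 7.98, and the repressed dnBrg1 arrays stood highest among the repressed ones. Inhba rose by 0.40 in dnBrg1 (SE 0.105; adjusted p = 0.0174), by 0.95 in dnChd4 (1.93-fold; adjusted p = 2.28e-05) and by 0.76 in dnSnf2h (1.69-fold; adjusted p = 0.00017). The dnBrg1 call was lost when any 1 of that line's 4 arrays was left out (adjusted p between 0.0535 and 0.142). Across the 12 arrays Inhba followed Gdf11 with r = 0.959, a description of points that share lines and states.

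**Figure D2:**
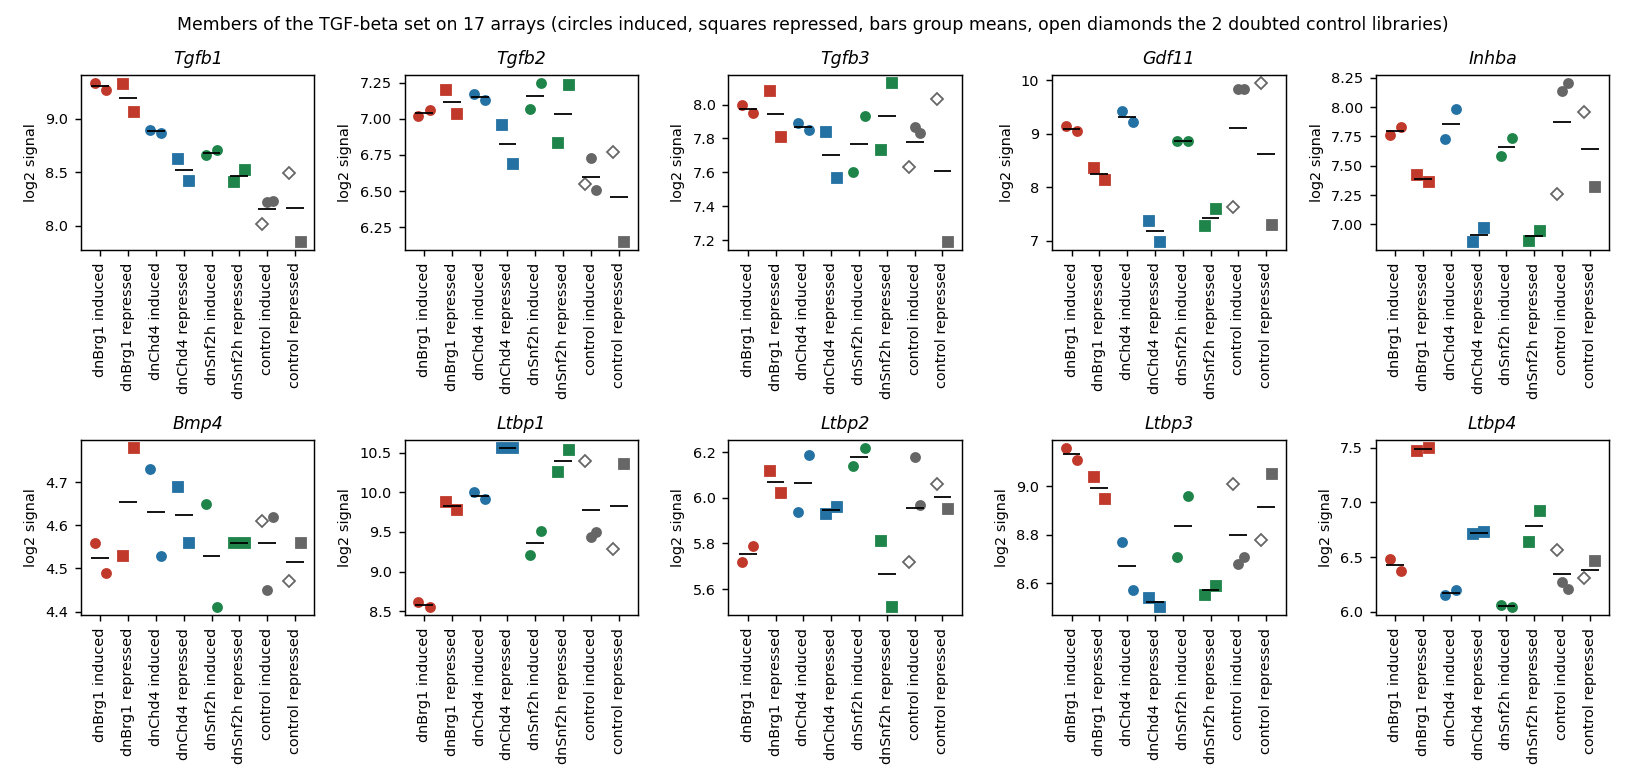
Log2 signal of the 10 member genes (panels) on all 17 arrays, grouped by line with induced left of repressed; circles are induced arrays, squares repressed arrays, bars group means, and open diamonds the libraries labelled control induced replicate 1 and control repressed replicate 1. In Gdf11, Inhba, Ltbp1 and Ltbp4 the induced and repressed arrays of the 3 dominant-negative lines are apart, as they are with smaller changes in Ltbp3, which did not pass. Each open diamond lies with the control arrays of the other label for Gdf11 and Ltbp1.

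Among the 3 TGF-beta isoform genes and Bmp4 there was 1 call. Tgfb1, the most widely made isoform, read 8.90 and 8.87 in induced dnChd4 arrays, against 8.63 and 8.42 in repressed ones, and rose by 0.36 (SE 0.108, 1.28-fold; limma adjusted p = 0.0301). That call was lost without dnChd4 repressed replicate 2 (adjusted p = 0.297), dnChd4 induced replicate 1 (0.169) or dnChd4 induced replicate 2 (0.104). Tgfb1 changed by 0.11 in dnBrg1 (adjusted p = 0.621) and by 0.22 in dnSnf2h (adjusted p = 0.203), where neither passed. Tgfb2 changed by -0.07 in dnBrg1, 0.33 in dnChd4 (adjusted p = 0.111) and 0.13 in dnSnf2h, with no call, and the dnChd4 change passed when array weights were used (adjusted p = 0.0209) or when either repressed dnSnf2h array was left out (0.0409 each). Tgfb3 changed by 0.03, 0.16 and -0.17 in those lines, with 95% intervals that all lay between -0.48 and 0.48. Bmp4, a ligand of the BMP branch, read between 4.41 and 4.78 on all 17 arrays, with its mean below the dim level of 4.77, and no change of it was detectable at this signal.

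Ltbp1 encodes a binding protein that couples to all 3 TGF-beta isoforms. Its probe set read 8.62 and 8.55 in induced dnBrg1 arrays, against 9.88 and 9.78 in repressed ones. In dnChd4 it read 10.00 and 9.91 induced and 10.56 and 10.56 repressed, and in dnSnf2h 9.21 and 9.51 induced and 10.25 and 10.53 repressed. All induced arrays were below the repressed arrays of their own line. Ltbp1 fell by 1.24 in dnBrg1 (SE 0.116, 2.37-fold; limma adjusted p = 1.1e-05), by 0.61 in dnChd4 (1.53-fold; adjusted p = 0.00169) and by 1.03 in dnSnf2h (2.04-fold; adjusted p = 3.43e-05). The induced dnBrg1 group was the lowest of the 8 groups, and its arrays did not overlap those of the next, induced dnSnf2h.

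Ltbp4 encodes a binding protein of the TGF-beta1 propeptide that also helps to assemble elastic fibres. It read 6.48 and 6.37 in induced dnBrg1 arrays, against 7.47 and 7.50 in repressed ones. In dnChd4 it read 6.15 and 6.20 induced and 6.71 and 6.73 repressed, and in dnSnf2h 6.06 and 6.04 induced and 6.64 and 6.92 repressed. The repressed dnBrg1 arrays were the highest of all 17. Ltbp4 fell by 1.06 in dnBrg1 (SE 0.101, 2.09-fold; adjusted p = 1.25e-05), by 0.54 in dnChd4 (1.46-fold; adjusted p = 0.00147) and by 0.73 in dnSnf2h (1.66-fold; adjusted p = 0.000176).

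Some genes of the fibroblast marker list were also lower. Of 6 genes 4 fell in dnBrg1 (Vim, Pdgfra, Pdgfrb and S100a4), 1 in dnChd4 (S100a4) and 3 in dnSnf2h (Vim, Pdgfrb and S100a4), and none rose. Over all genes 6.22%, 6.82% and 8.34% were called lower in those lines. The mean of the list lay between 8.56 and 8.64 in induced dnBrg1 arrays against 9.18 to 9.25 in repressed ones. It lay between 9.15 and 9.17 against 9.24 to 9.40 in dnChd4, and between 8.81 and 9.21 against 9.31 to 9.41 in dnSnf2h. In the control line, with labels as deposited, it lay between 8.87 and 9.27 against 9 to 9.33. Of the 8 epithelial genes Krt14 fell in each line and Krt7 rose in dnSnf2h. Of the 6 macrophage genes Cd68 fell in dnBrg1 and rose in dnChd4, and the other 5 were dim. The part of these genes in the changes of the members was not tested, and in RNA from whole cultures fewer cells of a type and less RNA per cell cannot be told apart.

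Neither Ltbp2 nor Ltbp3 passed as lower in any line on these 12 arrays. Ltbp2, which binds fibrillin and does not couple to latent TGF-beta, read 6.14 and 6.22 in induced dnSnf2h arrays, against 5.81 and 5.52 in repressed ones. It rose there by 0.51 (SE 0.113, 1.42-fold; limma adjusted p = 0.00517), a call lost without dnSnf2h repressed replicate 2 (adjusted p = 0.0506) and with that line fitted alone (0.0645). In dnBrg1 it read 5.72 and 5.79 induced and 6.12 and 6.02 repressed, a change of -0.32 that did not pass (adjusted p = 0.079) but did with that line fitted alone (0.0465), with array weights (0.0435) and without either repressed dnSnf2h array (0.0354 each). In dnChd4 it changed by 0.12 (adjusted p = 0.579). Ltbp3, which couples to the TGF-beta isoforms as Ltbp1 does, changed by 0.15 in dnBrg1 (adjusted p = 0.447), by 0.15 in dnChd4 (0.427) and by 0.26 in dnSnf2h (0.106), the last of which passed without dnSnf2h induced replicate 1 (0.0489). Its induced arrays were all above the repressed arrays of their own line.

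Whether the lines differed in these inductions was tested as the difference of 2 inductions, on the same 12 arrays. Of 30 such tests over the members 2 passed, and 0 with 17 arrays. Gdf11 rose less in dnBrg1 than in dnChd4, by 0.84 against 2.14, a difference of -1.30 (SE 0.2, 95% interval -1.73 to -0.87; limma adjusted p = 0.00316), where 1.27% of all genes passed. Its means in dnBrg1 and dnChd4 were 9.09 and 9.32 induced, and 8.25 and 7.18 repressed. Ltbp2 differed between dnBrg1 (-0.32) and dnSnf2h (0.51) by -0.83 (SE 0.159; adjusted p = 0.028), where 0.632% of all genes passed. The Ltbp2 difference did not pass with that pair of lines fitted alone (adjusted p = 0.0691), with array weights (0.0611) or with median centring (0.0619), and was lost in 9 of the 12 fits that left out 1 array, all but those without dnSnf2h repressed replicate 1 or either induced dnChd4 array. Between dnChd4 and dnSnf2h no member passed, with 0.130% of all genes passing, and 3 members and 1482 genes had an unadjusted limma p under 0.05. The Gdf11 difference there was 0.72 (95% interval 0.29 to 1.15; adjusted p = 0.364). The falls of Ltbp1 and Ltbp4 were larger in dnBrg1 than in dnChd4 by -0.64 (interval -0.99 to -0.28; adjusted p = 0.0898) and -0.52 (interval -0.83 to -0.22; adjusted p = 0.115), which did not pass on 12 arrays and did pass with those lines fitted alone (adjusted p = 0.0134 and 0.0332). The Inhba difference between dnBrg1 and dnChd4 was -0.54 (interval -0.86 to -0.23). It did not pass on 12 arrays (limma adjusted p = 0.114) and did with array weights (0.0421). Between dnBrg1 and dnChd4, 6 members and 1958 genes had an unadjusted limma p under 0.05. Between dnBrg1 and dnSnf2h, 4 members and 2001 genes did.

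The lines also differed before induction. Repressed dnBrg1 arrays against repressed dnChd4 arrays gave 5 members higher and 1 lower, where 14.4% of all genes passed, and against repressed dnSnf2h arrays 6 higher and 1 lower, where 14.3% passed. These contrasts share the repressed dnBrg1 arrays. Tgfb1 read 9.33 and 9.06 in repressed dnBrg1 arrays, against 8.63 and 8.42 in repressed dnChd4 and 8.41 and 8.52 in repressed dnSnf2h, a difference of 0.67 (limma adjusted p = 0.000696) and 0.73 (adjusted p = 0.000412). The inductions of Tgfb1 in the same 3 lines were 0.11, 0.36 and 0.22. Gdf11 was higher by 1.07 and 0.81, Inhba by 0.48 and 0.49, Ltbp3 by 0.47 and 0.42 and Ltbp4 by 0.77 and 0.71 in the same contrasts, and Ltbp1 was lower by -0.74 and -0.57. For Gdf11, Inhba and Ltbp1 the mean of the dnBrg1 arrays thus lay on the side of the induced dnChd4 and dnSnf2h arrays, and for Ltbp4 on the far side of the repressed ones. The Inhba call against dnChd4 was lost without dnChd4 repressed replicate 1 (adjusted p = 0.0666), and the Ltbp3 calls were lost without dnBrg1 repressed replicate 1 (0.0603 against dnChd4 and 0.0998 against dnSnf2h) and, against dnChd4, without dnChd4 repressed replicate 2 (0.0679). With 17 arrays 4 of the 13 calls passed. With the compared groups fitted alone, the calls against dnSnf2h were lost for Inhba (0.0539), Ltbp1 (0.051), Ltbp2 (0.152) and Ltbp3 (0.0891). Array weights and median centring also ended those of Ltbp2 (0.111 and 0.0717) and Ltbp3 (0.0796 and 0.0526), and quantile normalization that of Ltbp2 (0.054). Ltbp2 was higher against dnSnf2h alone (0.40; adjusted p = 0.0267), a call lost without any 1 of dnBrg1 repressed replicate 1 (0.149), dnBrg1 repressed replicate 2 (0.0628) and dnSnf2h repressed replicate 2 (0.185). Between repressed dnChd4 and repressed dnSnf2h no member passed, with 0.0150% of all genes passing. There 1 member and 1579 genes had an unadjusted limma p under 0.05. The line and what was integrated into it cannot be told apart in these contrasts.

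In the control line, with labels as deposited, no member passed, and neither did any gene (0% of all genes; 0 members and 845 genes at an unadjusted limma p under 0.05). Gdf11 read 7.64, 9.84 and 9.83 in control induced replicates 1, 2 and 3, against 9.96 and 7.29 in control repressed replicates 1 and 2, a change of 0.48 (SE 0.678; adjusted p = 0.994). Ltbp1 read 10.40, 9.43 and 9.50 induced and 9.29 and 10.36 repressed, and Inhba 7.26, 8.14 and 8.21 induced and 7.96 and 7.32 repressed. In each of these genes the library labelled control repressed replicate 1 was at the level of control induced replicates 2 and 3, and the library labelled control induced replicate 1 at that of control repressed replicate 2. Ltbp4 spanned less, with 6.56, 6.27 and 6.21 induced and 6.31 and 6.46 repressed. There too control induced replicate 1 was nearest to control repressed replicate 2, and control repressed replicate 1 to control induced replicate 2.

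**Figure D3:**
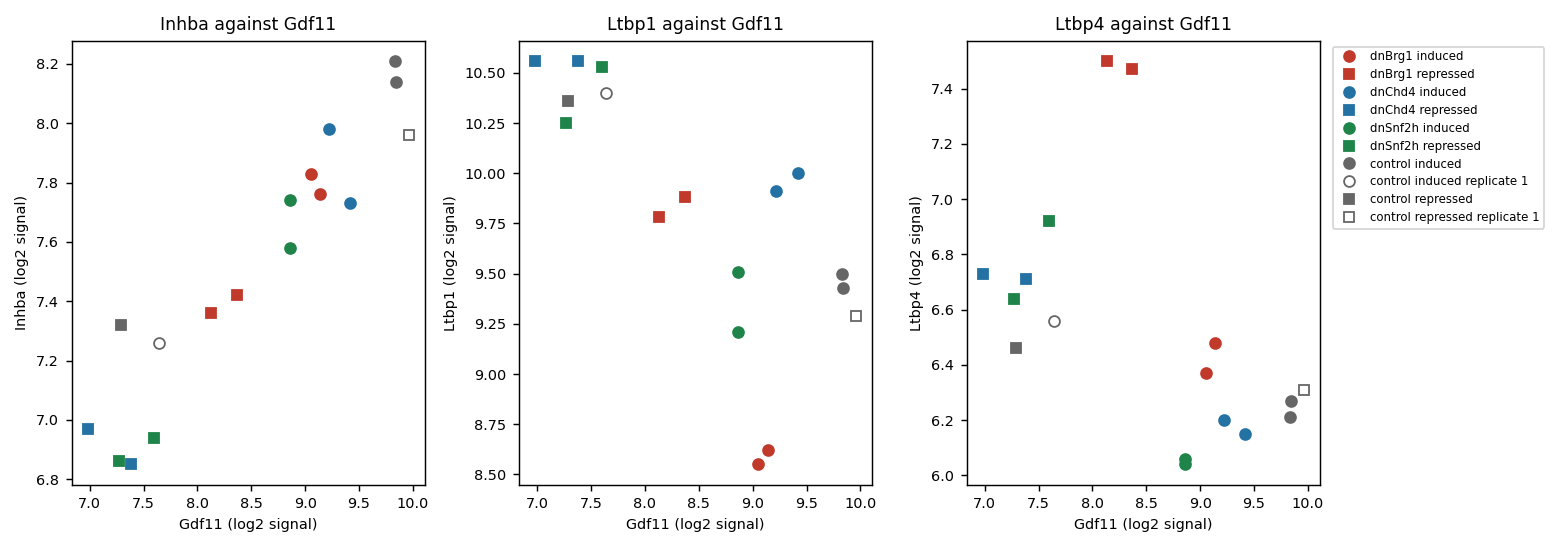
Log2 signals of Inhba, Ltbp1 and Ltbp4 (y axes) against Gdf11 (x axes) on each of the 17 arrays; circles are induced and squares repressed, colours are lines, and open symbols are the libraries labelled control induced replicate 1 and control repressed replicate 1. The open square lies beside the filled grey circles and the open circle beside the filled grey square, and the repressed dnBrg1 arrays stand apart at Ltbp4 of 7.47 and 7.50.

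With 15 arrays, which leaves 2 induced and 1 repressed control arrays, 7 members passed in the control line, 5 higher and 2 lower, where 26.6% of all genes passed. The direction of this contrast follows from which arrays were left out, and the lone repressed array is assumed to vary like the other groups. Gdf11 was then higher by 2.54 (SE 0.167; limma adjusted p = 4.6e-08) and Inhba by 0.86 (adjusted p = 6.94e-05), and Ltbp1 was lower by -0.89 (adjusted p = 0.000122). Tgfb3 was higher by 0.66 (adjusted p = 0.00841), Tgfb2 by 0.47 (0.043) and Tgfb1 by 0.37 (0.0419), and Ltbp3 was lower by -0.35 (0.0488). Ltbp4 changed by -0.22 and did not pass (adjusted p = 0.219). With 15 arrays the signs for Gdf11, Inhba and Ltbp1 in this line, which makes the transactivator alone, were those of the dominant-negative lines, and with the labels as deposited none of the 3 passed.

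Each dominant-negative induction was also set against the control induction. All 3 contrasts share the control arrays. On 17 arrays, with labels as deposited, 1 of 30 tests over the members passed. Ltbp4 averaged 6.42 in induced dnBrg1 and 6.35 in induced control arrays, and 7.49 and 6.39 in the repressed ones. It changed by -1.06 in dnBrg1 and by -0.04 in control, a difference of -1.03 (limma adjusted p = 0.0474), where 0.0903% of all genes passed. With the replicate number as a block this call was lost (adjusted p = 0.0965), and it was lost in 12 of the 17 fits that left out 1 array (adjusted p up to 0.343; 0.136 without control repressed replicate 1), all but those without either repressed dnSnf2h array, control repressed replicate 2, or control induced replicate 1 or 3. No member passed for dnChd4 minus control (0.0401% of all genes; 1 member and 771 genes at an unadjusted p under 0.05) or dnSnf2h minus control (0% of all genes; 3 members and 1121 genes at an unadjusted p under 0.05). With 15 arrays the Ltbp4 difference in dnBrg1 was -0.84 (adjusted p = 0.00378), where 6.95% of all genes passed. The Gdf11 difference was -1.70 with 15 arrays and 0.37 with 17 in dnBrg1, and -1.12 with 15 and 0.95 with 17 in dnSnf2h. Its sign thus depended on which control arrays were kept. Without control repressed replicate 1 alone the Gdf11 difference was -0.96 in dnBrg1, -0.39 in dnSnf2h and 0.33 in dnChd4. In dnChd4 it was 1.67 with 17 arrays and -0.40 with 15 (adjusted p = 0.475).

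Among 13256 other genes above the dim level, those whose 12-array pattern was most like Gdf11 were Mxd4, which encodes a Max-binding antagonist of Myc (r = 0.986), the PDZ protein gene Tax1bp3 (0.984) and the transporter gene Slc22a15 (0.983). Mxd4 averaged 8.69 in induced dnBrg1 arrays against 7.93 in repressed ones, 8.92 against 7.36 in dnChd4 and 8.54 against 7.58 in dnSnf2h. Most like Ltbp1 were the epithelial membrane protein gene Emp1 (0.99), the small Cajal body RNA gene Scarna17 (0.981) and the cyclophilin gene Ppid (0.98). Most like Ltbp4 were the cadherin gene Cdh13 (0.969), the creatine synthesis gene Gamt (0.969) and the replication kinase gene Cdc7 (0.968). These correlations run over 12 arrays that share lines and states.

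The rest of the pathway was read from 6 lists of 100 genes, of which 94 were measured. The 30 calls of the genes with the 2 smallest adjusted p per list and line all held with 15 arrays, and 27 were lost with 17. These are 20 genes, of which none passed in the control line with labels as deposited (none had an unadjusted limma p under 0.05 either). With 15 arrays 12 of them were higher and 1 lower in the control line, where 26.6% of all genes passed, and the genes were picked for passing in the dominant-negative lines. Of 22 other ligands of the superfamily, 9 of them dim, none passed in dnBrg1 or dnChd4, and Bmp5 alone rose in dnSnf2h (0.67; limma adjusted p = 0.0187), a call lost without dnSnf2h repressed replicate 1 or either induced array of that line (adjusted p between 0.0563 and 0.117). Of 13 receptors and co-receptors 1 rose and 2 fell in dnBrg1, 4 rose in dnChd4, and 2 rose and 1 fell in dnSnf2h, against 14.2%, 18.0% and 17.5% of all genes called in those lines. The list medians were 0.00, 0.23 and 0.12. Acvr1b, the type I receptor through which activin and Gdf11 signal, was higher in each of these lines, by 0.48 in dnBrg1 (adjusted p = 0.0308), 0.83 in dnChd4 (0.000649) and 0.85 in dnSnf2h (0.000604). The dnBrg1 call of Acvr1b was lost without any 1 of that line's arrays (adjusted p between 0.0542 and 0.21). The type III co-receptor gene Tgfbr3 fell in dnBrg1 by 0.46 (adjusted p = 0.0059; 0.0579 without dnBrg1 induced replicate 1). Endoglin (Eng) rose in dnChd4 by 0.59 (adjusted p = 0.00122), and the BMP receptor gene Bmpr2 by 0.47 in dnChd4 (adjusted p = 0.0095) and by 0.48 in dnSnf2h (adjusted p = 0.00826; 0.0916 without dnSnf2h induced replicate 2).

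Of 14 Smads and Smad regulators, 1 fell in each dominant-negative line, Tgif1, a corepressor of Smad2 and Smad3, where 14.2%, 18.0% and 17.5% of all genes were called in either direction. It averaged 8.61 in induced dnBrg1 arrays against 9.41 in repressed ones, 8.63 against 9.47 in dnChd4 and 8.30 against 9.18 in dnSnf2h (adjusted p = 0.000411, 0.000184 and 0.000149). In the control line Tgif1 read 9.26, 7.96 and 7.94 in induced replicates 1, 2 and 3 and 8.01 and 9.49 in repressed replicates 1 and 2, a change of -0.37 with 17 arrays (adjusted p = 0.994) and -1.54 with 15 (adjusted p = 7.73e-07). None of this list rose in dnBrg1, and the same 2 rose in dnChd4 and dnSnf2h. The inhibitory Smad gene Smad6 rose by 0.66 in dnChd4 (adjusted p = 0.000885) and 0.40 in dnSnf2h (0.0232). The BMP-branch gene Smad9 rose by 0.73 in dnChd4 (adjusted p = 0.000907) and 0.46 in dnSnf2h (adjusted p = 0.021; 0.162 without dnSnf2h repressed replicate 1 and 0.158 without dnSnf2h induced replicate 2).

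Of 17 genes for latency, processing and activation 4 rose and 1 fell in dnBrg1, 5 rose in dnChd4, and 4 rose and 1 fell in dnSnf2h, against 14.2%, 18.0% and 17.5% of all genes called in those lines. The list medians were -0.09, 0.05 and 0.02, near those of all genes. The 2 that fell were the membrane protease gene Mmp14 in dnBrg1 (-0.60; limma adjusted p = 0.00141) and the integrin subunit gene Itgb3 in dnSnf2h (-0.34; 0.0345). Tgm2, the transglutaminase that crosslinks LTBPs into the matrix, rose by 1.00 in dnBrg1 (limma adjusted p = 1.8e-05), 0.50 in dnChd4 (0.00274; 0.0527 without dnChd4 repressed replicate 2) and 0.45 in dnSnf2h (0.0054). Bmp1, a procollagen protease that also cleaves LTBP1, rose by 0.39 in dnBrg1 (adjusted p = 0.0228), 0.73 in dnChd4 (0.000219) and 0.52 in dnSnf2h (0.003). Itgav, the alpha subunit of the integrins that free TGF-beta from its propeptide, rose by 0.73 in dnBrg1 (0.000542), 0.46 in dnChd4 (0.00951) and 0.44 in dnSnf2h (0.0122).

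Of 12 extracellular antagonists 3 rose and 1 fell in dnBrg1, 2 rose in dnChd4 and 4 rose in dnSnf2h, against 14.2%, 18.0% and 17.5% of all genes called in those lines. The list medians were 0.05, 0.02 and 0.15. Nbl1, a secreted BMP antagonist, rose in each line, by 0.63 in dnBrg1 (limma adjusted p = 0.000419), 1.08 in dnChd4 (3.2e-06) and 0.66 in dnSnf2h (0.000211). The serine protease gene Htra1 rose in dnBrg1 by 0.71 (adjusted p = 0.000114). The activin-binding follistatin gene Fst rose in dnChd4 by 0.44 (adjusted p = 0.0101), a call lost without dnChd4 repressed replicate 1 (0.158) or either induced array (0.0524 and 0.0756). Chordin (Chrd) rose in dnSnf2h by 0.36 (adjusted p = 0.0242; 0.111 without dnSnf2h repressed replicate 2 and 0.193 without dnSnf2h induced replicate 1).

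Of 16 measured genes that TGF-beta or BMP signalling is known to raise, 1 rose and 2 fell in dnBrg1, 5 rose in dnChd4, and 3 rose and 1 fell in dnSnf2h, with medians of -0.08, 0.24 and 0.00 and against 14.2%, 18.0% and 17.5% of all genes called in those lines. The smooth muscle genes Acta2 and Tagln rose most in dnChd4. Acta2 read 8.11 and 9.0 in induced dnChd4 arrays, against 5.94 and 6.06 in repressed ones (2.56; limma adjusted p = 6.09e-06), and rose by 2.32 in dnSnf2h (adjusted p = 1.88e-05). In dnBrg1 it changed by -0.50 (adjusted p = 0.223). In the control line Acta2 read 5.86, 7.87 and 8.06 in induced replicates 1, 2 and 3 and 7.70 and 6.04 in repressed replicates 1 and 2, a change of 0.40 with 17 arrays (adjusted p = 0.994) and 1.93 with 15 (adjusted p = 8.21e-05). Tagln rose by 2.53 in dnChd4 (adjusted p = 3.71e-07) and by 0.60 in dnSnf2h (0.0259), and changed by 0.06 in dnBrg1 (adjusted p = 0.899). The fibronectin gene Fn1 fell in dnBrg1 by 0.63 (adjusted p = 0.000504) and the tropomyosin gene Tpm1 rose there by 0.37 (adjusted p = 0.0267; between 0.103 and 0.249 without dnBrg1 repressed replicate 2 or either induced array). The periostin gene Postn fell in dnSnf2h by 0.67 (adjusted p = 0.00456; 0.0585 without dnSnf2h induced replicate 1).

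**Figure D4:**
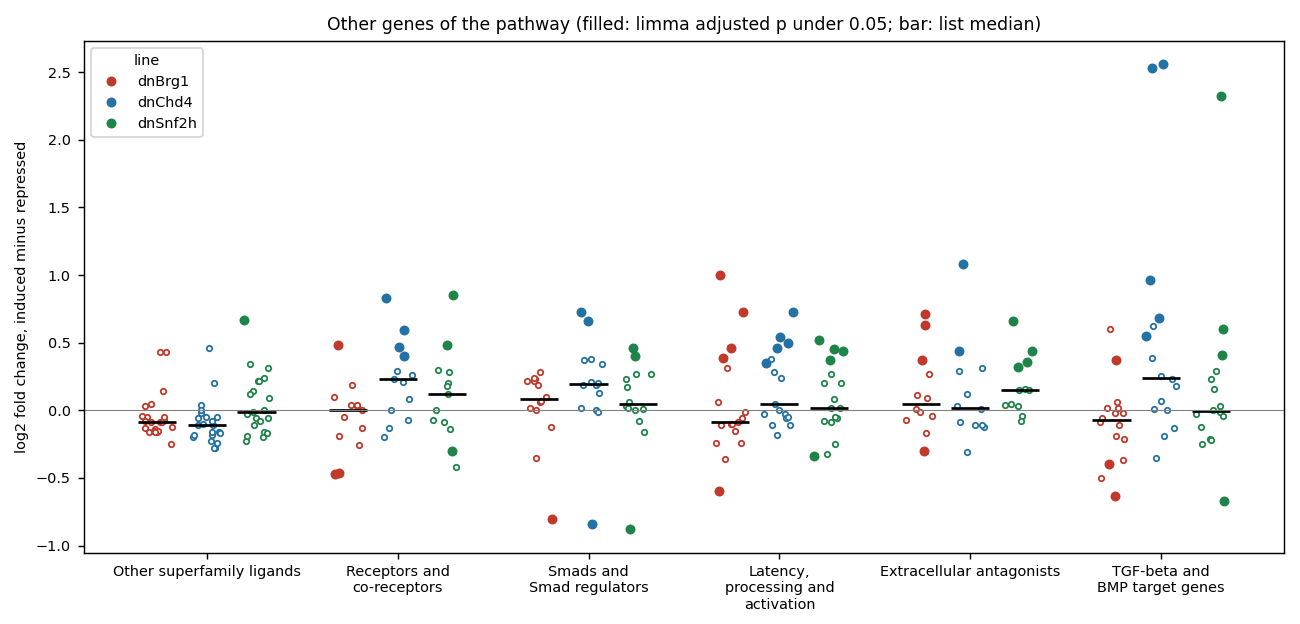
Log2 fold change, induced minus repressed, of 94 other genes of the pathway in 6 lists (x axis) for the dnBrg1, dnChd4 and dnSnf2h lines; each point is a gene, filled where it passed an adjusted p of 0.05, and bars are list medians. Acta2 in dnChd4 and dnSnf2h and Tagln in dnChd4 lie above 2, and the lowest filled point in each line is Tgif1.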

How the data were processed

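Total RNA (about 100 ng per array) was measured on Affymetrix whole-transcript mouse gene arrays, per the labels' protocols, and stock cells were kept in 5 µg/ml tetracycline. The authors deposited 1 log2 value per probe set and array, made with Affymetrix Expression Console per the submitters' processing notes. The program's version and its summarization are not stated in any source at hand, nor is a genome build. The log2 scale was judged from the values (2.02 to 14.86, array medians 5.48 to 5.63), which were used without further scaling. No background values were used, and the number of arrays limits the precision.

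Of 35557 probe sets 21789 had 1 symbol, 1621 several and 12147 none. The highest-mean probe set per gene gave 19938 genes. They were fitted with 1 mean per group in limma 3.58.1 (R 4.3.3; lmFit, contrasts.fit, eBayes), with Benjamini-Hochberg adjustment over all genes. Members were all named; in each pathway list and dominant-negative induction the 2 genes with the smallest adjusted p past 0.05 were named, and for the 3 members with the smallest adjusted p the 3 genes of highest Pearson r, leaving out predicted and clone names. Other genes named beside them (members of marker lists, Mmp14 and Itgb3, and Acta2, Tagln, Bmp1, Bmpr2, Itgav, Smad6 and Smad9 in further lines) were given after their values were seen. The members, lists and fits were chosen with earlier results of these data known. Same-numbered arrays of the 6 dominant-negative groups deviated together in 3 of 15 pairs of groups (r above 0.1; range -0.393 to 0.313). Between the induced and repressed groups of 1 line r was 0.016 in dnBrg1, 0.135 in dnChd4 and 0.313 in dnSnf2h. Numbers were not taken as pairs, and the replicate number as a block was an alternative fit.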

Additional observations from a re-analysis of the deposited data

Results flagged for a closer look

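The induction of Gdf11 differed between dnBrg1 and dnChd4 by -1.30 on the log2 scale (limma adjusted p = 0.00316 for the difference itself), and that of Ltbp2 between dnBrg1 and dnSnf2h by -0.83 (adjusted p = 0.028). The induction of Ltbp4 differed between dnBrg1 and control by -1.03 (adjusted p = 0.0474). Each is listed because the test of the difference between 2 lines passed on the arrays used. Such a difference holds the repressed levels as well as the induced ones. Ltbp4 averaged 6.42 in induced dnBrg1 against 6.35 in induced control, and 7.49 against 6.39 repressed. Gdf11 averaged 9.09 in induced dnBrg1 against 9.32 in induced dnChd4, and 8.25 against 7.18 repressed. Ltbp2 averaged 5.75 in induced dnBrg1 against 6.18 in induced dnSnf2h, and 6.07 against 5.67 repressed. The part of the repressed levels was not tested. The Ltbp4 difference did not pass with the replicate number as a block (adjusted p = 0.0965) or in 12 of 17 fits without 1 array, and the Ltbp2 difference did not pass in 9 of 12. The Gdf11 and Ltbp2 differences did not pass with 17 arrays. No group held 4 arrays, so no single array could be tested as an outlier within its group.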

How the results depend on the processing

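The count of members past the threshold was 4 in dnBrg1, 5 in dnChd4 and 5 in dnSnf2h, and with all 17 arrays 1, 0 and 0, where calls over all genes were 68, 19 and 1 in place of 2839, 3590 and 3497. Counts were within 1.5 times of the first under every other setting, and between 3 and 5, 4 and 6, and 4 and 6 when 1 array was left out. In the control line 15 arrays gave 7 members and 5310 genes in place of 0 and 0. Differences between dominant-negative inductions gave 2 calls, 0 with 17 arrays, 4 with array weights, 1 with median centring, and 1 to 4 when 1 array was left out. Dominant-negative minus control inductions gave 1 call, 3 with 15 arrays, and 0 with only the groups of the contrast, with the replicate number as a block, with trended and robust eBayes, with array weights, without the dimmest 30% of genes and with all singly named probe sets; leaving out 1 array gave 0 to 1. The replicate block changed no other count of members by over 1.5 times. The repressed lines gave 13 calls over 30 tests and 4 with 17 arrays, where calls over all genes were 804 against dnChd4 and 775 against dnSnf2h in place of 2875 and 2857. With 15 arrays Tgfb1 in control turned to 0.37, and Gdf11 minus control turned to -1.70 in dnBrg1 and -1.12 in dnSnf2h. Values that passed in neither fit changed sign in 125 of 6036 comparisons. Of 30 named pathway calls 27 were lost with 17 arrays, 0 with 15, and 10 when 1 array was left out. Over all genes, leaving out dnSnf2h repressed replicate 1 gave the most calls in dnBrg1 (3423), dnChd4 (4180) and dnSnf2h (4204); the fewest were 1353, 1926 and 2342. The dnSnf2h induction had 1446 with its line alone and 2063 with array weights. Differences of inductions gave 254, 126 and 26 genes, 26, 7 and 8 with 17 arrays, and 550 and 77 with array weights for the contrasts with dnBrg1. The dnBrg1 minus control contrast had 18 genes, 1386 with 15 arrays and 10 with the block. The causes of these shifts were not tested. The 17-array fit adds the control arrays to the spread by construction.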
